A study of Vitis vinifera with 6 samples.

Results

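The 109 genes described here were listed by the study as co-expressed with VvWRKY26 across public arrays of grapevine berry, and they were read out in leaves of cv. Sultana plantlets that did or did not receive a VvWRKY26 over-expression construct. The list holds 113 genes with a probe on the array, of which 4 were left out: the vacuolar pumps PH5 and PH1, and the flavonoid regulators VvMYBC2-L1 and VvMYC1. Each of the 109 remaining members has 1 of the 34369 gene probes of the array, and they were sorted by their description into 12 function groups. The co-expression list was computed from other arrays and not from these leaves. The largest group is transport with 21 members, followed by genes of unknown or other function with 13, and by transcription, hormone and light response, by proteolysis and ubiquitination, and by kinases and signalling with 12 each. The smaller groups are carbohydrate metabolism with 9 members, photosynthesis, pigments and isoprenoids with 8, the cell wall with 7, lipid metabolism, the cytoskeleton, and amino acid and one-carbon metabolism with 4 each, and oxidases with 3.

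Plantlets of Vitis vinifera cv. Sultana grown in vitro were vacuum infiltrated at 5 weeks with Agrobacterium strain C58C1 and sampled 6 days later. In the 35S:VvWRKY26 group the bacteria carried the VvWRKY26 cDNA behind the 35S promoter, a viral promoter active in most plant cells. The labels call the control group wild type, whereas the methods describe plants infiltrated with the pK7WG2.0 vector holding a non-coding sequence, so infiltration was common to both groups. For each construct 6 plants were infiltrated and 3 lines were put on arrays, selected by the study for high VvWRKY26 expression in the over-expressing group and low in the control group. The expression is transient, which means that not every cell of a leaf need carry the construct. Since RNA came from whole leaves, a lower share of cells of a type cannot be told apart from less RNA per cell.

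VvWRKY26 belongs to the WRKY transcription factors, proteins that bind DNA through a zinc-containing domain, and is the grapevine relative of Arabidopsis TTG2 and petunia PH3. In those species the factor acts with MYB, bHLH and WD40 partners on trichomes, seed coat pigments and, in petunia petals, the acidity of the vacuole. The vacuole is the store of sugars, acids, ions and pigments in plant cells, and carriers in its membrane decide what enters and leaves it. A gene that shares the expression profile of a factor over many samples may be regulated by it, by a common regulator, or may only be used in the same cells.

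Signals are given as log2 of the spot intensity relative to the 75th percentile of the array, and the values of a group are given for replicates 1, 2 and 3 in that order. Of the 109 members, 106 were well above background on all 6 arrays, against 69.0% of all gene probes. The exceptions were the serine carboxypeptidase VIT_03s0091g01240, measured above background on 1 of 3 arrays in each group, and BT1 and IQD12, on 2 of 3 arrays of 35S:VvWRKY26. PSBS, a photosystem II protein of photoprotection, has no value on control replicate 3, where its spot was marked as an outlier. PSBS, CRD1 and CHLP, which serve photosynthesis and chlorophyll synthesis, were well above background on every array of these leaves. The arrays were scanned in 3 pairs, each of 1 control and 1 35S:VvWRKY26 array: control replicate 1 with 35S:VvWRKY26 replicate 1 (scan 1), control replicate 2 with 35S:VvWRKY26 replicate 3 (scan 2) and control replicate 3 with 35S:VvWRKY26 replicate 2 (scan 3). By the headers, all control arrays lay at position 1 of a slide and all 35S:VvWRKY26 arrays at position 4. If so, position and construct cannot be told apart. These entries are uncertain, since they give control replicates 1 and 2 the same slide and position, and likewise 35S:VvWRKY26 replicates 1 and 3.

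The level of the over-expressed gene itself, VvWRKY26 (VIT_08s0040g03070), is given as a check of the labels. Since the lines were selected by the expression of this gene, its values are a description and carry no test. Its log2 signal was 3.12, 3.25 and 2.57 in the control arrays and 3.40, 3.69 and 3.32 in the 35S:VvWRKY26 arrays. The lowest 35S:VvWRKY26 array was thus just above the highest control array. The difference was 0.49 ± 0.34 (SE, n = 3 and 3), or 1.40-fold. Whether its probe reads both the transgene and the endogenous gene is not known, since the probe sequence was not at hand. Within the scans the difference was 0.28, 0.066 and 1.12 for scans 1, 2 and 3, so most of it came from the pair of scan 3.

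The comparison of the constructs asks how the 109 members differed between 35S:VvWRKY26 and control leaves. At an adjusted p of 0.05, limma called 0 members, as it called 0 of all 34369 probes (0%), and the adjusted p of each member was 1.00. Without adjustment, 2 members had p under 0.05, both higher in 35S:VvWRKY26, which is 1.83% of the members against 1.03% of all probes in either direction and 0.541% in the higher direction. With dim probes left out, limma put 3 members under 0.05, all higher, against 1.89% of the probes kept. The methods' t-test put 5 members under that threshold, all higher, against 2.29% of all probes. Without control replicate 1, limma put 9 members under it, 8 of them higher, against 3.53% of all probes. In 8 of the 108 members with a value on every array the groups did not overlap, 7 of them higher in 35S:VvWRKY26 (6.48% of members against 2.43% of all probes) and 1 lower (0.926% against 2.26%), together 7.41% against 4.70%. With dim probes left out, the share of the probes kept was 6.17% in either direction, close to that of the members. Each of the 8 had an exact two-sided permutation p of 0.1, the smallest that 3 arrays against 3 allow. Groups that do not overlap reach this value by construction, so it adds nothing to their separation. The permutation also exchanged all arrays freely and did not keep the pairs of the scans. By the mean, 74 members were higher and 35 lower, while 44.6% of all probes were higher. Over probes well above background on all arrays, 11921 were higher and 11779 lower, with a median difference of 0.0028. The median difference over the members was 0.11 on the log2 scale, beside -0.053 over all probes, and only 1 member, the protein kinase VIT_07s0031g00480, differed 2-fold or more, against 7.59% of all probes. The median varied with the arrays kept: it was 0.37 without control replicate 1, -0.079 without control replicate 2, and 0.27 without both, where all probes gave -0.22, 0.19 and 0.13. With any other array left out, the member median lay between 0.059 (control replicate 3) and 0.18 (35S:VvWRKY26 replicate 2).

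**Figure D1:**
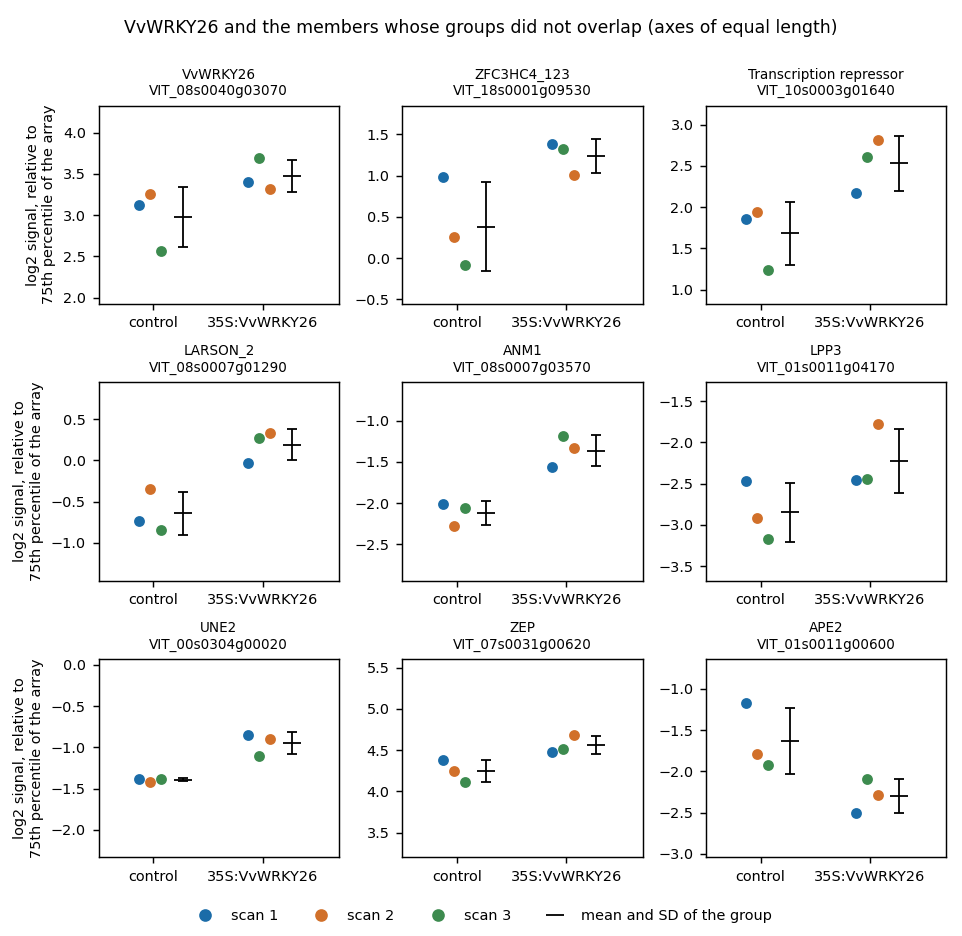
Log2 signal relative to the 75th percentile of the array (y axis) of VvWRKY26 and of the 8 members whose groups did not overlap, with 1 point per array coloured by scan and the mean and SD of each group (n = 3) beside the points. All y axes span the same length; APE2 is the member with the control arrays above the 35S:VvWRKY26 arrays, and LARSON_2 and ANM1 are the members with an unadjusted p under 0.05.

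Of the 12 genes of transcription, hormone and light response, 8 were higher and 4 lower by the mean. In 2 of them the groups did not overlap, beside 4.70% of all probes and 6.17% with dim probes left out. This count was not tested. LARSON_2 (VIT_08s0007g01290) is a BEL1-like homeodomain protein, a family known in Arabidopsis for the shaping of meristems and stems. Its log2 signal was -0.74, -0.35 and -0.84 in control leaves and -0.028, 0.27 and 0.33 in 35S:VvWRKY26 leaves. Every 35S:VvWRKY26 array was above every control array, by 0.83 ± 0.32 (SE) on average, or 1.78-fold (unadjusted limma p = 0.0413, exact permutation p = 0.1). The difference was 0.71, 0.67 and 1.11 within scans 1, 2 and 3, so each pair of arrays showed it at a similar size.

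The gene described only as a transcription repressor (VIT_10s0003g01640) gave 1.86, 1.95 and 1.24 in control leaves and 2.17, 2.60 and 2.82 in 35S:VvWRKY26 leaves. Its groups were apart by 0.85 ± 0.37 (SE), or 1.80-fold, the lowest value of all being control replicate 3. With scan as a block, LARSON_2, this repressor, ANM1 and the RING finger gene ZFC3HC4_123 were the 4 members with an unadjusted p under 0.05 by limma. That share of 3.67% lies below the 5.30% of all probes in that fit, and none of the 4 passed the adjusted threshold.

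The other 10 regulators had overlapping groups. Among the auxin genes, IAA16_1, a repressor of auxin response, gave 4.10, 1.96 and 2.20 in control and 3.54, 2.79 and 3.10 in 35S:VvWRKY26 leaves, and ARF3_2, an auxin response factor, gave 1.40, 0.29 and 0.19 in control leaves and from 0.66 to 1.15 in 35S:VvWRKY26 leaves. For both, control replicate 1 was the highest of the arrays and control replicates 2 and 3 the lowest. GAI1_4, a DELLA protein that holds back gibberellin response, differed by -0.30 ± 0.54 (SE), and UVR8, the UV-B photoreceptor, by 0.068 ± 0.38. ILR1, which frees auxin from its amino acid conjugates, differed by -0.15, and the pseudo-response regulator APRR2 by -0.36. The remaining members were the bZIP factor GBF6_3 at -0.44, SUB1 of blue light signalling at 0.020, and the zinc finger genes CCCHFAM_23 at 0.10 and ZFP2 at 0.16.

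The 21 transport members split into 14 higher and 7 lower by the mean, with a median difference of 0.032. In 3 of them the groups did not overlap, beside 4.70% of all probes and 6.17% with dim probes left out. This count was not tested. ANM1 (VIT_08s0007g03570), described as anthocyanin membrane protein 1, gave -2.01, -2.28 and -2.06 in control leaves and -1.56, -1.19 and -1.34 in 35S:VvWRKY26 leaves. The spread within each group was small, at an SD of 0.14 and 0.19, and the difference was 0.75 ± 0.30 (SE), or 1.69-fold (unadjusted limma p = 0.0470, exact permutation p = 0.1). Each scan showed it, at 0.45, 0.95 and 0.87. UNE2 (VIT_00s0304g00020), named for an Arabidopsis mutant with unfertilized embryo sacs, gave nearly the same value on the control arrays, -1.38, -1.42 and -1.38, and -0.85, -1.10 and -0.90 in 35S:VvWRKY26 leaves. Its difference was 0.44 ± 0.29, an SE wider than the spread of its own arrays because limma takes part of it from all genes.

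APE2 (VIT_01s0011g00600), in Arabidopsis the exporter of triose phosphates from the chloroplast, was the 1 member of the 109 whose 35S:VvWRKY26 arrays all lay below the control arrays. Its log2 signal was -1.17, -1.79 and -1.92 in control and -2.51, -2.09 and -2.28 in 35S:VvWRKY26 leaves. The difference was -0.67 ± 0.35 (SE), 1.59-fold lower, and it was widest within scan 1 at -1.34 and narrowest within scan 3 at -0.17.

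The 3 potassium carriers of the list did not separate. NHX1, an exchanger of sodium or potassium for protons at the vacuole, gave -0.14, 0.55 and -0.45 in control and 0.052, 0.61 and 0.16 in 35S:VvWRKY26 leaves (difference 0.29 ± 0.40, SE). KEA3, which in Arabidopsis exchanges potassium for protons at the thylakoid, differed by 0.19 ± 0.48, its control replicate 3 at -3.53 lying below the other arrays, which ranged from -2.60 to -2.05. The uptake permease KUP6 differed by 0.00075 ± 0.35. Neither phosphate transporter separated the groups: PHT2_1 of the chloroplast differed by -0.44 ± 0.54, with control replicate 1 highest at 4.29, and PHT1_9 by 0.0093 ± 0.58, with control values from -0.76 to 1.25.

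Among carriers of organic molecules, the MATE genes, efflux carriers that in plants move flavonoids, citrate or toxins, differed in opposite directions. VIT_08s0056g01120 gave 0.37, 0.24 and 1.19 in control and 0.87, 2.42 and 0.69 in 35S:VvWRKY26 leaves (0.73 ± 0.59, SE), a difference carried by 35S:VvWRKY26 replicate 2, without which it was 0.18. It was higher within all 3 scans, at 0.50, 0.45 and 1.23. VIT_08s0056g01000 gave 1.69, 0.66 and 1.29 and then 0.98, 0.57 and 1.32, a difference of -0.26 ± 0.41. A further MATE protein, EDS5, which in Arabidopsis carries salicylic acid out of the chloroplast, differed by 0.00043 ± 0.32. The nucleobase-ascorbate transporters NAT6 and NAT11 differed by 0.25 and -0.080, the oligopeptide transporter OPT4 by 0.032, the ABC transporter ABCG22 by 0.20, and the major facilitator VIT_16s0098g01290 by 0.041. The LEM3 genes, named after the yeast partner protein of phospholipid flippases, differed by 0.16 (VIT_00s1667g00010) and -0.24 (VIT_00s2279g00010). The list was completed by TIC62, of protein import into the chloroplast, at 0.41, the glutamate receptor channel GLR5 at -0.14, and the biopterin transport-related gene BT1 at -0.28, and all 13 of these genes had overlapping groups.

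In proteolysis and ubiquitination, 10 of 12 members were higher by the mean. ZFC3HC4_123 (VIT_18s0001g09530) carries a RING finger, the domain with which many ubiquitin ligases bind their partner enzyme. It gave 0.98, 0.26 and -0.088 in control and 1.38, 1.33 and 1.01 in 35S:VvWRKY26 leaves, a difference of 0.86 ± 0.39 (SE), or 1.81-fold. Control replicate 1 nearly reached the lowest 35S:VvWRKY26 array, so the groups were only just apart. The other RING finger genes, ZFC3HC4_100 and ZFC3HC4_75, differed by 0.20 and -0.00058. The armadillo repeat genes differed by 0.38 (VIT_15s0048g01880) and 0.028 (VIT_00s2269g00010), and the protease SLP3, of the subtilisin family, by 0.47 ± 0.87. The serine carboxypeptidase VIT_11s0206g00110 spanned -5.52 to -0.25 within the 35S:VvWRKY26 group alone, and the carboxyl-terminal and metallo-proteases differed by between -0.0062 and 0.57.

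The lipid member LPP3 with identifier VIT_01s0011g04170, a phosphatase that removes the phosphate of phosphatidic acid, gave -2.46, -2.91 and -3.17 in control and -2.45, -2.44 and -1.78 in 35S:VvWRKY26 leaves. Control replicate 1 and the 2 lower 35S:VvWRKY26 arrays were nearly level, and the mean difference was 0.62 ± 0.37 (SE). Its neighbour by gene number, VIT_01s0011g04160, has the same short name and differed by -0.014 ± 0.52. PDAT, an acyltransferase that makes storage lipid, and ORP1D, an oxysterol-binding protein, differed by 0.25 and 0.053.

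ZEP (VIT_07s0031g00620), the zeaxanthin epoxidase of the xanthophyll cycle and of abscisic acid synthesis, was the pigment gene with groups apart. It gave 4.38, 4.25 and 4.11 in control and 4.48, 4.52 and 4.69 in 35S:VvWRKY26 leaves. The gap between the groups was narrow, and the difference was 0.32 ± 0.29 (SE), or 1.25-fold. CHLP, the geranylgeranyl reductase that supplies the tail of chlorophyll, had the largest difference of the group at 0.72 ± 0.78, with control values of 4.67, 2.33 and 1.95 around 35S:VvWRKY26 values of 3.65, 3.29 and 4.16. CRD1, an enzyme of the chlorophyll ring, differed by -0.14, PSBS by 0.033 on 2 control arrays, the thylakoid protease DEGP1 by 0.37 and HCF107, of chloroplast RNA handling, by 0.0046. At the entry points of isoprenoid synthesis, DXS of the plastid differed by -0.058 and mevalonate kinase, MVK, of the cytosolic route by 0.11.

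In carbohydrate metabolism, 5 members were higher and 4 lower by the mean, and no groups were apart. PKP1, a plastid pyruvate kinase, had the largest difference at -0.73 ± 0.40 (SE; exact permutation p = 0.2), with -1.02, -0.21 and 0.029 in control and -1.20, -0.85 and -1.35 in 35S:VvWRKY26 leaves. The groups overlapped in 1 pair of arrays, 35S:VvWRKY26 replicate 2 lying above control replicate 1. Of the vacuolar invertases, which split sucrose into glucose and fructose, GIN2 (VIT_02s0154g00090) differed by -0.67 ± 0.45 and GIN1 (VIT_16s0022g00670) by 0.0021 ± 1.38. A related gene, the beta-fructosidase BFRUCT3 (VIT_00s2527g00010), differed by -0.17. Hexokinase HXK3 and glucose-6-phosphate dehydrogenase G6PD1 differed by 0.49 and 0.46, fructose-bisphosphate aldolase by 0.21, the starch debranching enzyme ISA2 by 0.13 and the aldose reductase AKR by -0.18.

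The amino acid and one-carbon group held MTHFR1, which makes the methyl folate used for methionine, with 2.30, 1.25 and 1.48 in control and 1.36, 0.57 and 1.27 in 35S:VvWRKY26 leaves (-0.61 ± 0.44, SE). Subunits of the glycine cleavage system, which feeds photorespiratory glycine into folate, differed by -0.34 (GLDP2) and 0.22 (aminomethyltransferase), and glutamate N-acetyltransferase of arginine synthesis by 0.49. The oxidases differed by -0.27 (the P450 CYP72A8), -0.20 and 0.015 (the multicopper oxidases LPR1, VIT_01s0011g04740 and VIT_01s0011g04720, whose Arabidopsis relative acts in root response to low phosphate). None of these groups of 3 arrays was apart.

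Among kinases and signalling genes, 6 were higher and 6 lower by the mean. The protein kinase VIT_07s0031g00480 had the largest difference of all members, 1.11 ± 0.95 (SE, 2.15-fold; exact permutation p = 0.5), with 1.68, -2.02 and -0.18 in control and 1.35, 0.45 and 1.00 in 35S:VvWRKY26 leaves. Control replicate 1 was its highest array and control replicate 2 its lowest, and without control replicate 2 the difference was 0.18. The receptor kinases TMK1 and FEI1, which in Arabidopsis act in auxin and cell wall signalling, differed by -0.46 and -0.11, the leucine-rich repeat gene VIT_00s2085g00010 by -0.38 and the dual-specificity kinase DSK1 by 0.33. The calmodulin-binding gene IQD12 differed by -0.015, and the 6 remaining members lay between -0.22 and 0.59. The 13 genes of unknown or other function ranged from -0.48 to 0.69, with 8 higher and 5 lower by the mean, and the largest, VIT_01s0026g00960, gave 1.84, 0.018 and 0.47 in control and 1.79, 1.58 and 1.02 in 35S:VvWRKY26 leaves.

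**Figure D2:**
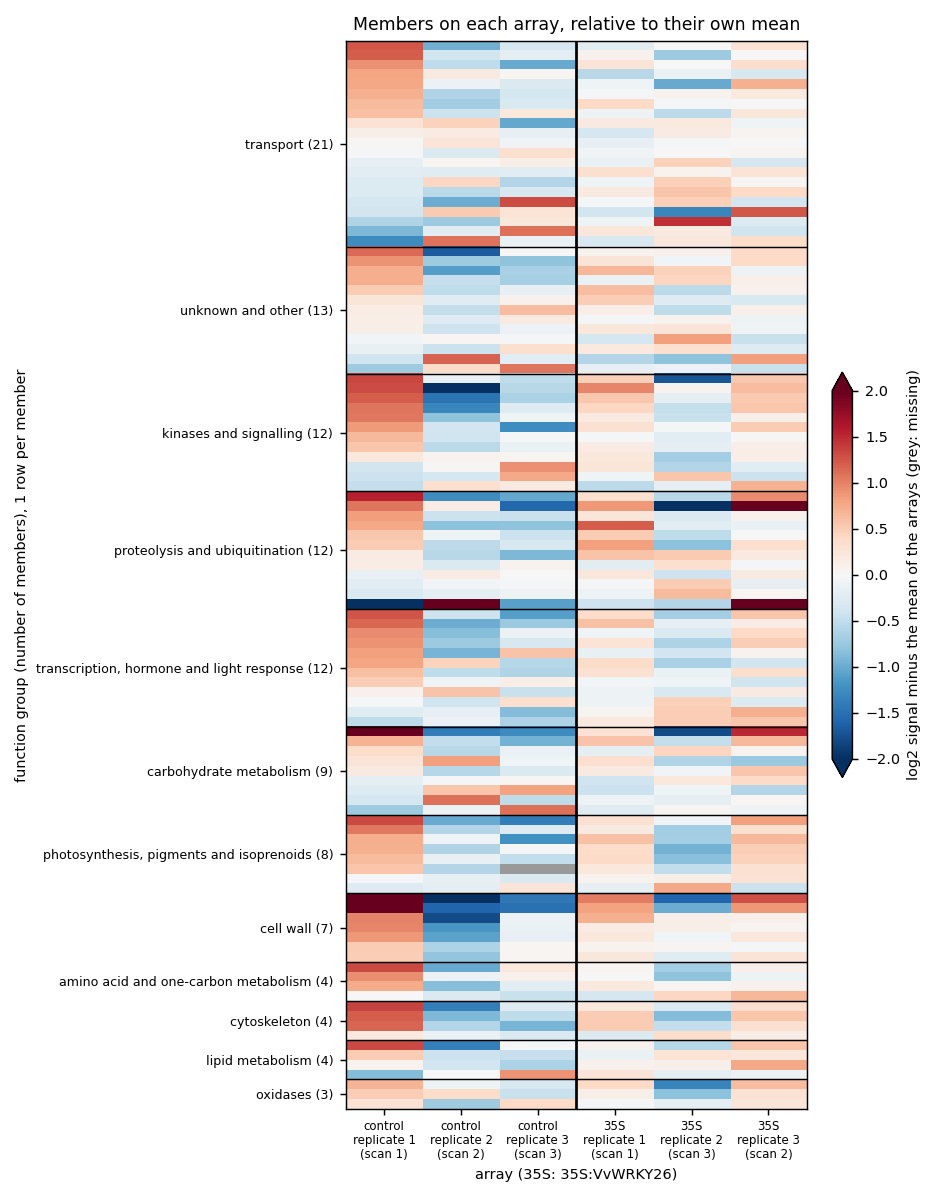
Log2 signal of each of the 109 members on the 6 arrays, minus the member's own mean over the arrays (colour, limited to 2 either way; red high, blue low, grey missing), with 1 row per member, sorted within function groups by control replicate 1. The column of control replicate 1 is red over most rows of most groups and that of control replicate 2 mostly blue, and both are control arrays.

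Many members moved together from array to array within the control group; this was noticed after the values were seen and is given as a description, without a test. Of the 108 members with a value on every array, 55 were highest on control replicate 1, which is 50.9% against 12.2% of all probes. On control replicate 2, 42 members were lowest, or 38.9% against 6.71% of all probes. Counting only probes well above background on all arrays, the shares were 52.4% against 16.2% and 40.0% against 9.65%. Both at once held for 28 members, 25.9% against 3.02%. Over all probes the order ran the other way: control replicate 2 was the array most often highest (34.7%) and control replicate 1 the array most often lowest (30.9%).

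Relative to its own mean, the median member lay at 0.51, -0.41 and -0.22 on the control arrays and at 0.17, -0.14 and 0.19 on the 35S:VvWRKY26 arrays. The same medians over all probes were -0.32, 0.40 and -0.15, and then -0.25, -0.19 and 0.46. Over probes well above background on all arrays they were narrower, at -0.14, 0.16 and -0.083, and then -0.093, -0.016 and 0.17. The 35S:VvWRKY26 arrays thus lay between the control arrays for the members. The median SD of a member was 0.66 over the control and 0.37 over the 35S:VvWRKY26 arrays, beside 0.76 and 0.63 over all probes. Over probes well above background on all arrays, as most members are, these medians were 0.53 and 0.42. Against those probes the members varied more over the control arrays and less over the 35S:VvWRKY26 arrays. The control SD was the larger in 70.4% of members and in 60.4% of all probes.

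How strongly control replicate 1 stands out depended on how the signals were processed. After quantile normalization 55 members were highest on it, against 18.0% of all probes, and 51 were lowest on control replicate 2, against 21.1%. After normexp correction, which also started from median spot intensities and added an offset of 50, 61 members were highest on control replicate 1, but so were 59.0% of all probes, while the 40 members lowest on control replicate 2 stood beside 8.22% of all probes. These arrays also differ in scan day, in their 75th percentile (1613 and 1063) and in the share of probes well above background (77.5% and 94.7%), and the part of these in the pattern was not tested.

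**Figure D3:**
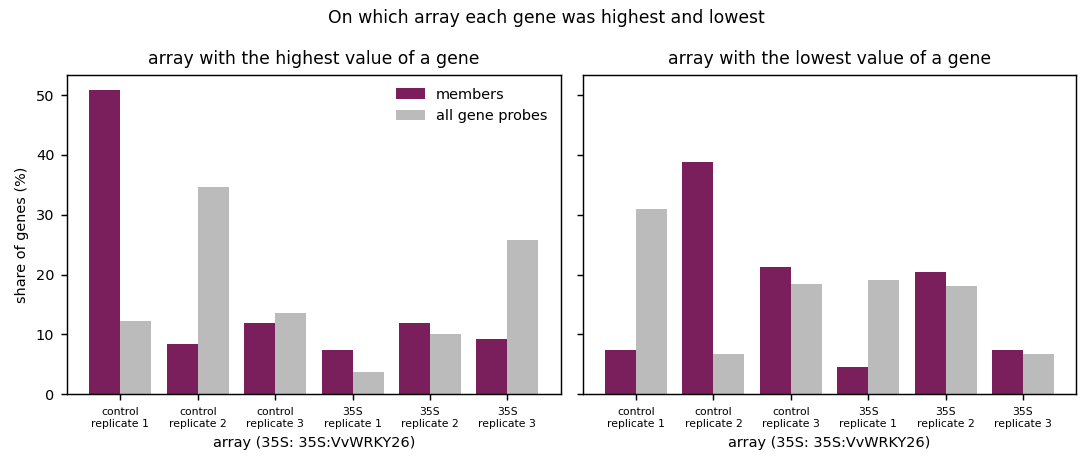
Share of genes (y axis, in %) whose highest value (left) or lowest value (right) fell on each of the 6 arrays, for the members (dark bars, n = 108) and for all gene probes with a value on every array (grey bars). Members are highest on control replicate 1 in 50.9% and lowest on control replicate 2 in 38.9%, against 12.2% and 6.71% of all probes.

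The cell wall group followed this pattern in full. All 7 of its members were highest on control replicate 1 and lowest on control replicate 2. By the mean all 7 were higher in 35S:VvWRKY26 leaves, with a median difference of 0.24. That direction rested on control replicate 2. Without this array each of the 7 was lower in 35S:VvWRKY26 leaves by the mean, the pectinesterase VIT_16s0098g01900 differing by -0.13. COB (VIT_17s0000g05070), listed as a phytochelatin synthetase but named after Arabidopsis COBRA of oriented cell expansion, gave 2.76, -2.52 and -1.66 in control and 0.79, -1.82 and 1.05 in 35S:VvWRKY26 leaves. Its control arrays spanned 5.28 on the log2 scale, and its group difference was 0.48 ± 1.57 (SE). CSLC05 (VIT_04s0069g00780), of a family that in Arabidopsis makes the glucan chain of xyloglucan, gave 1.60, -2.38 and -2.30 and then 0.010, -1.79 and 0.065. For both, control replicates 2 and 3 and 35S:VvWRKY26 replicate 2 were low and the other 3 arrays high.

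The pectin genes had a narrower span. The pectinesterase VIT_16s0098g01900, an enzyme that removes methyl groups from pectin, gave 3.92, 1.14 and 2.81 in control and 3.63, 3.04 and 3.03 in 35S:VvWRKY26 leaves (0.61 ± 0.74, SE). The polygalacturonase VIT_02s0025g01330, which cuts the pectin chain, gave 4.11, 1.97 and 3.00 and then 3.29, 3.25 and 3.19. In both the 35S:VvWRKY26 arrays were close together, inside the range of the control arrays. The pectinesterase VIT_04s0044g01000, the cellulase VIT_12s0028g03610 and the galactosyltransferase VIT_04s0008g01270 differed by 0.17, 0.24 and 0.052.

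The cytoskeleton, which guides the laying down of wall material, showed a like order in part, with 3 of 4 members highest on control replicate 1 and 2 of 4 lowest on control replicate 2. FRA1, a kinesin needed in Arabidopsis for the order of cellulose in fibres, gave 1.08, -1.02 and -0.63 in control and 0.37, -0.99 and 0.42 in 35S:VvWRKY26 leaves. MKRP2 and KMOTOR, both kinesins, ranged from -1.80 to 0.92 and from -1.87 to 0.23 over the control arrays, and KMOTOR was lowest on control replicate 3. The beta-tubulin TUB8 had another order, highest on 35S:VvWRKY26 replicate 2 (3.69) and lowest on control replicate 3 (3.06). The group differences of the 4 genes were between 0.12 and 0.23.

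Chosen after their values were seen, the 8 members with the widest spread over the control arrays among those well above background were COB, GIN1, CSLC05, the kinase VIT_07s0031g00480, SLP3, CHLP, an unknown protein (VIT_14s0060g01430) and the pectinesterase VIT_16s0098g01900. GIN1, a vacuolar invertase, gave 2.12, -1.90 and -1.78 in control and -0.23, -2.30 and 0.98 in 35S:VvWRKY26 leaves, and the protease SLP3 gave 2.01, -0.78 and -0.56 and then 0.77, -0.096 and 1.40. Control replicate 1 was the highest array for all 8. Choosing by spread over the control arrays favours a control array as an extreme, so this adds nothing to the order described above. VvWRKY26 itself did not follow these 8 members, being higher on control replicate 2 (3.25) than on control replicate 1 (3.12).

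**Figure D4:**
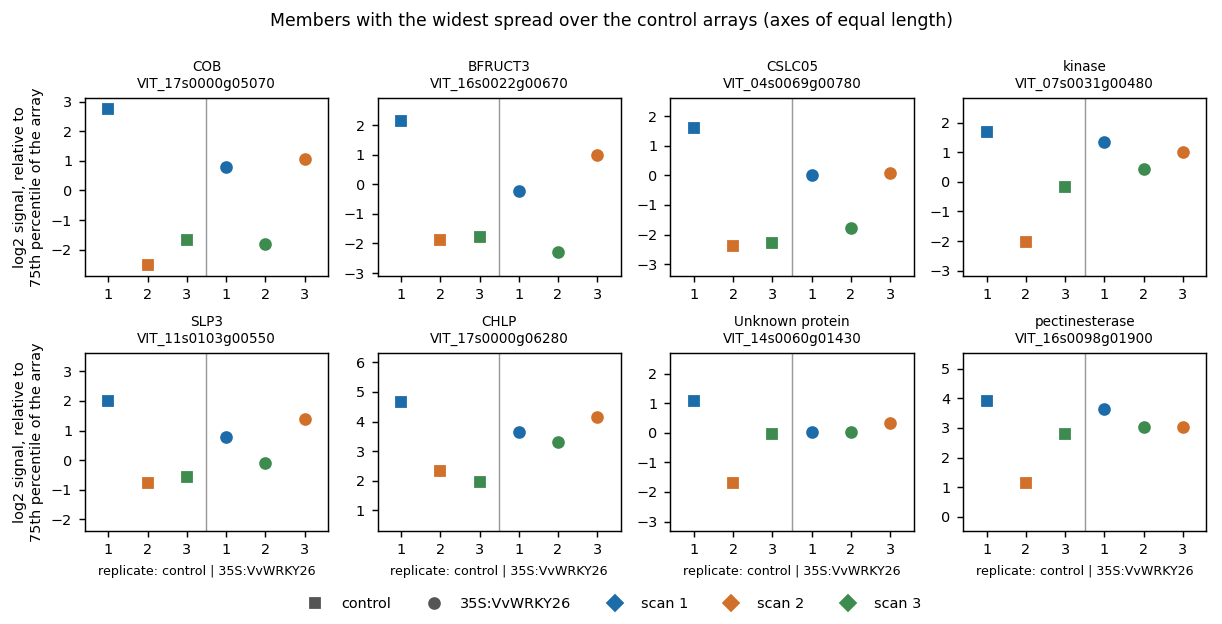
Log2 signal relative to the 75th percentile of the array (y axis, equal length in all panels) of the 8 members with the widest spread over the control arrays, by replicate (x axis; squares control, circles 35S:VvWRKY26, coloured by scan). Control replicate 1 is the highest point in every panel, and for COB it lies 5.28 above control replicate 2.

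Within the scans the members moved in opposite directions, which leaves the mean difference small. In scan 1, 76 of the 109 members were lower in 35S:VvWRKY26 leaves, or 69.7% against 47.7% of all probes, with a median of -0.29 (0.016 over all probes). In scan 2, 84 were higher, or 77.1% against 45.8%, with a median of 0.66 (-0.069 over all probes). In scan 3, 57 of 108 were higher and 51 lower, with a median of 0.094, against 46.8% of all probes higher. Lower in scan 1 and higher in scan 2 were 64 members, 59.3% against 24.8% of all probes. These counts partly restate the order of the control arrays. The 55 members highest on control replicate 1 must be lower in scan 1, and the 42 lowest on control replicate 2 must be higher in scan 2. After normexp correction 78 of the 109 members were lower in scan 1, a share below the 78.8% of all probes. In scan 2, 88 of the 109 were then higher, against 70.4% of all probes.

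All 7 cell wall and all 4 cytoskeleton members were lower in scan 1 and higher in scan 2, with medians of -0.65 and 1.28 for the wall and -0.68 and 1.18 for the cytoskeleton. For the wall members these directions follow from control replicate 1 being their highest and control replicate 2 their lowest array. Amino acid and one-carbon genes did the same in 4 of 4, with medians of -0.74 and 0.94. Transport genes were less uniform, at 13 of 21 lower in scan 1 and 13 of 21 higher in scan 2, with medians of -0.11 and 0.45; the difference between the groups of genes was not tested. The same direction in all 3 scans was found for 12 members higher and 6 lower, which are 11.1% and 5.56% of the members against 11.6% and 14.3% of all probes. The 8 members whose groups did not overlap are among these by construction, since each scan pairs an array of either group.

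**Figure D5:**
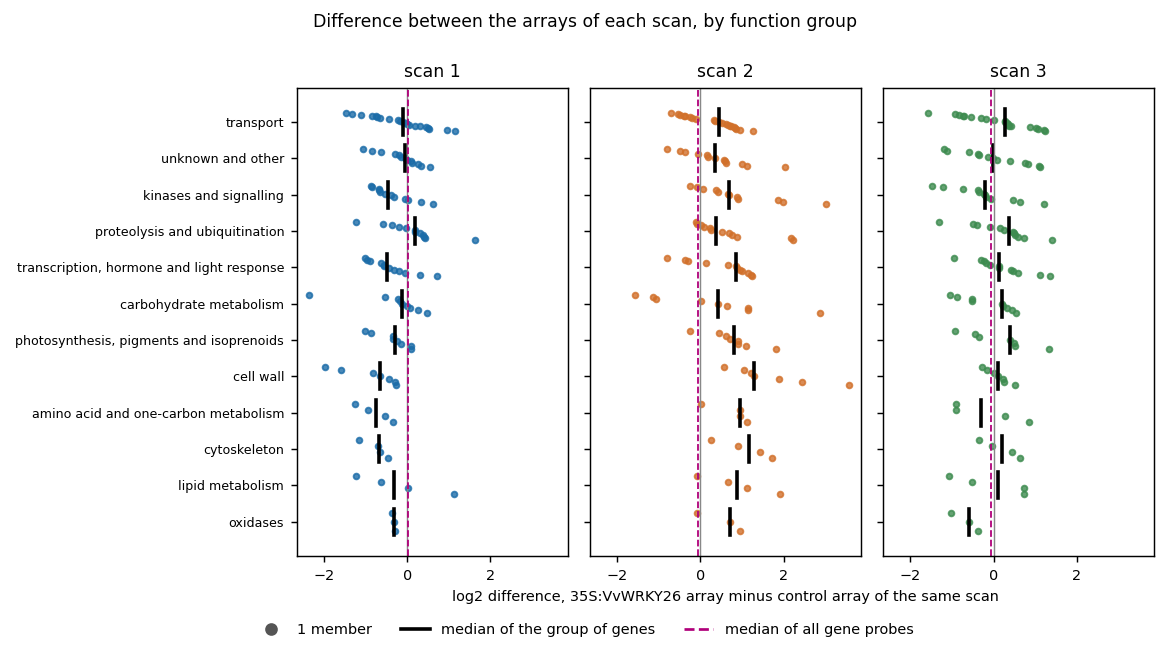
Log2 difference between the 35S:VvWRKY26 array and the control array of each scan (x axis) by function group (y axis), with 1 point per member, the median of each group of genes as a black bar and the median of all gene probes as a dashed line. Most groups lie left of 0 in scan 1 and all medians right of 0 in scan 2, while scan 3 is mixed.

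Members that share a name or an activity did not always share a profile. The invertases GIN1 and GIN2 differed by -2.36, 2.88 and -0.52 (GIN1) and by 0.071, -1.56 and -0.52 (GIN2) within scans 1, 2 and 3, so they were alike in scan 3 only. The gene that shares the short name BFRUCT3 with GIN1, VIT_00s2527g00010, differed by 0.25, -1.07 and 0.32. The LPP3 genes, with consecutive gene numbers, differed by 0.013, 1.13 and 0.73 (VIT_01s0011g04170) and by 1.12, -0.090 and -1.07 (VIT_01s0011g04160) within scans 1, 2 and 3. By contrast, the LPR1 genes differed by -0.32, 0.95 and -0.58 (VIT_01s0011g04720) and by -0.29, 0.71 and -1.02 (VIT_01s0011g04740), and the LEM3 genes parted only in scan 3, at 0.42 and -0.71. Whether probes of such relatives also bind each other's transcripts was not tested.

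Since the list was defined by likeness to VvWRKY26 over other arrays, the same likeness was described over the 6 leaf arrays. Pearson's r with VvWRKY26 was over 0.7 for 6 members, or 5.50% against 5.02% of all probes, and under -0.7 for 2 members, or 1.83% against 3.13%. The median r was 0.029 over the members and 0.026 over all probes, so the median member was close to the median probe in this respect. The 6 were the transcription repressor (0.85), ZFC3HC4_123 (0.83), LARSON_2 (0.83), NHX1 (0.83), KEA3 (0.77) and ZEP (0.74), and the 2 opposed were the leucine-rich repeat gene VIT_00s2085g00010 (-0.81) and the gene VIT_09s0018g01240 (-0.79). The arrays share scans and slides, and 4 of the 6 genes are among those whose groups did not overlap, as VvWRKY26's did not. Without the 2 arrays farthest from the median of VvWRKY26, control replicate 3 and 35S:VvWRKY26 replicate 2, 11 members were over 0.7 (10.1% against 7.23% of all probes). With values centred within each scan 14 members were over 0.7 (12.8% against 16.5% of all probes).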

How the data were processed

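Leaves of 3 lines per construct were measured on 1-colour Agilent arrays, with 1 line per array. The authors deposited scanner intensities per array (Agilent Feature Extraction 10.5.1.1, per the file headers), already background subtracted, with marks for outlier spots and spots well above background, and a normalized intensity table in which the values given for 35S:VvWRKY26 replicate 2 equal averages of replicates 1 and 3 in every row.

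From these, log2 of the processed intensity minus the 75th percentile of each array was computed over 34369 gene probes, leaving out 1417 control spots; outlier spots (6 to 139 per array) were left empty. The constructs were contrasted in limma 3.58.1 (R 4.3.3) without covariates, with Benjamini-Hochberg adjustment over all probes at 0.05 and 4 residual degrees of freedom; p-values are two-sided. On an array, 25391 to 32600 probes exceeded background clearly and 0 spots were saturated. Precision is limited by having 3 arrays a group, and the labels do not say whether lines came from separate infiltrations. Control replicates 1 and 2, and 35S:VvWRKY26 replicates 1 and 3, carry the same slide and position in the headers although they were scanned on different days.

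Named genes are VvWRKY26, the 21 transport members, members with an unadjusted p under 0.05 or groups that do not overlap, the largest difference of each group of genes without such a member, and members sharing a name. Other members are given by their differences, and the widest members and the order of the arrays were chosen after the values were seen. Members, lists and tests were chosen with earlier results of these data known. On simulated data with the spread of these arrays and 34369 genes, 200 genes were changed, each by more than any member differed here. At the adjusted threshold limma called 0 of them, 155 having an unadjusted p under 0.05. At 0.25 times the spread it called 168, with 10 false calls. The simulated arrays varied independently, without pairing by scan. At the full spread 5.38% of unchanged genes had an unadjusted p under 0.05, beside 1.03% of all probes in the data, so the simulation differs from these arrays. Python 3.11.15, NumPy 2.4.6, pandas 2.3.3 and matplotlib 3.10.9 served for tables and figures. Alternatives were normexp correction (offset 50, on median spot intensities), quantile normalization, the authors' table without its averaged column, 2 treatments of dim probes, outlier spots kept, scan, slide and replicate number as blocks, each array left out and the methods' t-test. Sequences and coordinates are not given, since the genome table used here is of another assembly.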

Additional observations from a re-analysis of the deposited data

How the results depend on the processing

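Across the settings tried, limma called 0 members at the adjusted threshold, as did the methods' t-test, and VvWRKY26 kept its direction, between 0.27 (normexp) and 0.63 (without control replicate 2). Normexp moved the median of all probes from -0.053 to -0.35 on the log2 scale while that of the members was 0.093. The count of members at an unadjusted limma p under 0.05 was 2 in the report, beside 1.03% of all probes. It was 0 with normexp (1.30% of all probes) and 0 in the authors' normalized table on 5 arrays (0.943%). With scan as a block it was 4, or 3.67% of members against 5.30% of all probes. The methods' t-test gave 5, beside 2.29% of all probes. With each array left out the count was between 0 and 9, beside 0.637% to 3.53% of all probes. Leaving out an array gave 11 to 37 members whose groups did not overlap, beside 9.32% to 17.4% of all probes. The 37 were found without control replicate 1, where 17.4% of all probes did so. The 11 were found without 35S:VvWRKY26 replicate 3, where 13.1% of all probes did so. With 2 arrays left in a group more genes separate. Likeness to VvWRKY26 over 0.7 was found for 11 members on 4 arrays, or 10.1% against 7.23% of all probes. With values centred within scans it was found for 14, or 12.8% against 16.5%. Under -0.7 lay 7 and 10 members in these settings, beside 7.83% and 22.0% of all probes. The cause of these changes was not tested.

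With the replicate number as a block, 0 members had an unadjusted p under 0.05, against 0.716% of all probes. The numbers do not pair the arrays: over all probes the deviations from the group means correlated at 0.63, -0.28 and -0.41 for replicates 1, 2 and 3, whereas the arrays scanned together correlated at 0.63, 0.69 and 0.53. Over the members alone, the arrays of scans 1, 2 and 3 correlated at 0.51, 0.073 and 0.59, so those of scan 2 hardly did. Arrays of the same replicate number correlated over the members at 0.51, 0.17 and -0.53.

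Of the 38 named members, 17 kept their direction in all settings and 21 did not. The log2 difference took the other sign with normexp for EDS5 (-0.11), ABCG22 (-0.44), the major facilitator (-0.12), KEA3 (-0.15), OPT4 (-0.054) and NAT11 (0.041). With quantile normalization it did so for EDS5 (-0.021), the LEM3 gene VIT_00s2279g00010 (0.042) and BT1 (0.15), and with dim spots at the lowest measured signal for BT1 (0.081). In the authors' table it did so for EDS5 (-0.0059), the same LEM3 gene (0.20), PHT1_9 (-0.079), KUP6 (-0.23), BT1 (0.30), OPT4 (-0.20), CYP72A8 (0.068), the LPR1 gene VIT_01s0011g04740 (0.41) and the LPP3 gene VIT_01s0011g04160 (0.070).

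With each array left out in turn, the log2 difference ranged across 0 for PHT2_1 (-0.73 to 0.056), EDS5 (-0.14 to 0.16), LEM3 (-0.66 to 0.20 for VIT_00s2279g00010, -0.10 to 0.56 for VIT_00s1667g00010), PHT1_9 (-0.44 to 0.56), KUP6 (-0.23 to 0.17), NAT6 (-0.040 to 0.63), ABCG22 (-0.38 to 0.79), the major facilitator (-0.43 to 0.67), KEA3 (-0.28 to 0.46), BT1 (-0.98 to 0.30), OPT4 (-0.46 to 0.69) and NAT11 (-0.18 to 0.068). Outside transport it did so for CYP72A8 (-0.56 to 0.068), the pectinesterase VIT_16s0098g01900 (-0.13 to 1.26), KMOTOR (-0.17 to 0.88), LPR1 (-0.56 to 0.41 for VIT_01s0011g04740, -0.34 to 0.22 for VIT_01s0011g04720), LPP3 (-0.45 to 0.43 for VIT_01s0011g04160), BFRUCT3 (-0.46 to 0.35 for VIT_00s2527g00010) and GIN1 (-0.75 to 1.32).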
